A study of Mus musculus with 29 samples.

Results

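The genes described here are 9 transcription factors used as markers of position along the developing neural tube: Otx1, Otx2, Emx2, Lhx2, Six3, Gbx2, Meis1, Meis2 and Irx3. They were found by gene symbol, as the transcript clusters whose only annotated symbol was one of these names, and each was measured by 1 cluster of the array. They are 9 of the 30142 genes with such a cluster. All 9 were among the 22063 genes tested, those with a signal above the median of all clusters on at least 2 arrays.

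The study followed mouse embryonic stem cells through neural differentiation on 29 arrays in 14 groups. It compared wild-type cells (WT) with cells labelled BERKO, which lack estrogen receptor beta (gene Esr2) according to the design text, and cells with and without LY3201, an agonist selective for that receptor. All cultures were free of feeder cells. The first stage, mESC, was kept with LIF and had 2 arrays labelled WT and 2 labelled BERKO, none with LY3201. The second stage, NPC, held neural precursor cells expanded with FGFb and laminin. The third, mDPC, was labelled as midbrain precursors, kept with FGFb, FGF8b, Shh and ascorbic acid. NPC and mDPC both had 2 arrays for each label with vehicle (DMSO, called untreated here) and 2 for each label with LY3201 at 0.5 nM for 4 days. The last stage, MN, was labelled as mature midbrain neurons, kept with ascorbic acid and without the growth factors. WT contributed 2 arrays untreated and 2 with LY3201 to it and BERKO 3 untreated and 2 with LY3201, and the length of its treatment was not given. How the knockout was made and whether each line was 1 clone were not given in the sources used here. The series text calls the replicates biological, but a single number appears in both mESC titles labelled BERKO, and another in both NPC titles labelled WT with LY3201, so p-values may measure a spread that is partly technical.

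The 9 proteins bind DNA through homeodomains and divide the neural tube into regions. OTX2, with its close relative OTX1, specifies forebrain and midbrain, GBX2 specifies anterior hindbrain, and the mutual repression of OTX2 and GBX2 places the boundary between midbrain and hindbrain. EMX2 and LHX2 pattern the cerebral cortex, and SIX3 marks the most anterior forebrain and the eye field. MEIS1, MEIS2 and IRX3 belong to the TALE class of homeodomain proteins and are not limited to the forebrain or midbrain: MEIS proteins bind DNA together with PBX and HOX proteins, also in hindbrain and spinal cord, and IRX3 is found from the thalamus back to the spinal cord.

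Promoters are shown for the 3 genes that carried most of the signal, Meis1, Meis2 and Irx3, and for 1 start of Otx2 that held the most motif matches. They come from the RefSeq table for GRCm38.p6, which held 12 transcript starts for 8 of the 9 genes (not Otx1), each as 300 bases from before to just after the start, 5′ to 3′ on the gene's strand. The 3 motifs searched on both strands were TAATCC, the type bound by OTX and other bicoid-class proteins, TAATTA, the type bound by LHX2 and many other homeodomain proteins, and TGACAG, the type bound by MEIS proteins. The first pair share the letters TAAT. Of 32851 promoters of this length in the table, 7.1% held TAATCC, 5.3% held TAATTA and 19.2% held TGACAG. Capitals mark the matches on either strand.
Meis1, chr11:19018920-19019219, minus strand: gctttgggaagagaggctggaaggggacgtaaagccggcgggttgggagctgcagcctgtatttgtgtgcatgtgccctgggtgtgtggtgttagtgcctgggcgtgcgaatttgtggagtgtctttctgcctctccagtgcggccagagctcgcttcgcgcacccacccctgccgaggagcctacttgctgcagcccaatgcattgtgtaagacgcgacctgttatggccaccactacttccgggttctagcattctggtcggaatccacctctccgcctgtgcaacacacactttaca
Meis2, chr2:116064570-116064869, minus strand: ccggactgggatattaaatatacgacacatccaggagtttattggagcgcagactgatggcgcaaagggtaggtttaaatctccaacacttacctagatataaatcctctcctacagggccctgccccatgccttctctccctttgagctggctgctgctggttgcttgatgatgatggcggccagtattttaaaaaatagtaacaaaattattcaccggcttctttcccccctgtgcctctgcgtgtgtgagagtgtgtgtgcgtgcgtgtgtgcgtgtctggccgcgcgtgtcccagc
Irx3, chr8:91801605-91801904, minus strand: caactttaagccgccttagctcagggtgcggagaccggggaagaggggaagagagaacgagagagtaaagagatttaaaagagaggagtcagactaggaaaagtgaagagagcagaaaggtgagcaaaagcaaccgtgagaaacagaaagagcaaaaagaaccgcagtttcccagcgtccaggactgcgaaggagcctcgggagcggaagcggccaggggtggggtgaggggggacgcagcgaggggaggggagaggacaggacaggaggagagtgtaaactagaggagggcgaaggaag
Otx2, chr14:48665060-48665359, minus strand: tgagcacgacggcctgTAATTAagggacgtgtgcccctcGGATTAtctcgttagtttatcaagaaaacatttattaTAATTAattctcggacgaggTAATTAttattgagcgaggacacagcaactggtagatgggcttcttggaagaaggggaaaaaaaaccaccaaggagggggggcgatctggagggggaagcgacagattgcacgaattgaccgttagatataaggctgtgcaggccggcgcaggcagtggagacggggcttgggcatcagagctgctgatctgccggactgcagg
The windows of Meis1, Meis2 and Irx3 held none of the 3 motifs. The Otx2 window held 1 match to TAATCC and 3 to TAATTA. CpG pairs numbered 15 in the Meis1 window, 13 in that of Meis2 and 14 in that of Irx3, against a median of 7 over all promoters. The GC content was 58.3% for Meis1, 51.0% for Meis2 and 56% for Irx3, against a median of 52.7%.

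Signals are on a log2 scale as deposited, and the 5222 negative control probe sets of the same arrays gave the level of background. Their median lay between 3.75 and 4.24 and their 95th percentile between 6.63 and 7.66 over the 29 arrays. The median of all clusters was lower, between 3.52 and 3.74, so the 95th percentile of the controls is a strict level. Meis1, Meis2 and Irx3 exceeded the 95th percentile of the controls on 25 of 29 arrays each, which were all arrays but the 4 of mESC. Otx1, Otx2, Emx2, Lhx2, Six3 and Gbx2 exceeded it on 0 of 29 arrays. The highest value of any of these 6 was 6.35, for Gbx2 in mESC labelled WT, above 88.2% of the negative controls of its array. The set was named for forebrain and midbrain, but the 3 genes above the 95th percentile of the controls are those not limited to these regions. The 6 regional genes stayed below it on every array, which does not show that they were silent. Differences between groups are still given for the other 6, but their folds are not, since both sides lay in the range of the negative controls.

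The Esr2 signal went against the genotype label. It lay between 3.8 and 4.46 on the 15 arrays labelled BERKO and between 3.21 and 3.47 on the 14 arrays labelled WT, with 0 arrays of either label above the 95th percentile of the negative controls. The direction of every genotype comparison below is therefore that of the labels. In bulk RNA, fewer cells of a type and less RNA per cell cannot be told apart.

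Meis1 was lowest in mESC and highest in NPC labelled WT. In mESC it read 4.29 and 4.38 labelled WT and 4.41 and 4.31 labelled BERKO. In untreated NPC it read 10.79 and 10.79 labelled WT and 10.26 and 10.16 labelled BERKO, and with LY3201 10.84 and 10.55 labelled WT and 10.11 and 10.10 labelled BERKO. The 4 NPC arrays labelled BERKO thus lay below the 4 labelled WT.

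In mDPC, Meis1 read 10.06 and 9.94 untreated and 10.43 and 10.38 with LY3201 in arrays labelled WT. In arrays labelled BERKO it read 9.06 and 9.10 untreated and 9.28 and 9.21 with LY3201, so the gap between the labels was wider than in NPC. In MN it read 8.19 and 8.26 untreated and 8.27 and 8.38 with LY3201 labelled WT, and 8.27, 8.28 and 8.35 untreated and 8.14 and 8.08 with LY3201 labelled BERKO. At this stage the labels overlapped once the treatments were pooled. Of the 13 pairs of neighbours in the order of the 14 group means, 10 had arrays that did not overlap. The 3 that did were the 2 mESC groups, NPC WT with and without LY3201, and MN WT with LY3201 beside untreated MN BERKO. Such pairs were not counted over all genes. Their number, here and for the genes below, only describes the order of the groups.

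Meis2, the paralog of Meis1, was likewise lowest in mESC and highest in NPC labelled WT, but over a narrower range and with another order between: untreated NPC BERKO lay above every MN group for Meis1 and below untreated MN WT for Meis2. Meis2 read 5.83 and 5.80 in mESC labelled WT and 5.85 and 5.99 in mESC labelled BERKO, above at least 82% of the negative controls. In NPC it read 9.45 and 9.49 untreated and 9.56 and 9.37 with LY3201 labelled WT, against 8.71 and 8.76 untreated and 8.71 and 8.81 with LY3201 labelled BERKO. The NPC arrays of the labels did not overlap.

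In mDPC, Meis2 read 9.03 and 8.99 untreated and 9.16 and 9.15 with LY3201 labelled WT, and 8.76 and 8.87 untreated and 8.92 and 8.86 with LY3201 labelled BERKO. The gap between the labels was smaller here than in NPC. In MN it read 8.66 and 8.95 untreated and 8.78 and 8.72 with LY3201 labelled WT, and 8.41, 8.23 and 8.40 untreated and 8.24 and 8.20 with LY3201 labelled BERKO. All 5 MN arrays labelled BERKO lay below the 4 labelled WT. Only 6 of the 13 neighbouring pairs of groups did not overlap for Meis2, since 6 groups from MN WT, mDPC BERKO and NPC BERKO with their LY3201 counterparts had means between 8.73 and 8.89.

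Irx3 varied less. In mESC it read 6.27 and 6.80 labelled WT and 6.74 and 6.16 labelled BERKO, a spread within groups that was the widest of the gene. In NPC and mDPC its 16 values lay between 7.48 and 7.84. In MN it read 7.36 and 7.37 untreated and 7.45 and 7.6 with LY3201 labelled WT, and 8.29, 8.0 and 7.92 untreated and 8.0 and 7.96 with LY3201 labelled BERKO. The highest Irx3 signals were thus those of the 5 MN arrays labelled BERKO, while 3 of its 4 MN arrays labelled WT lay below every NPC array. Of its 13 neighbouring pairs, 4 did not overlap.

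**Figure D1:**
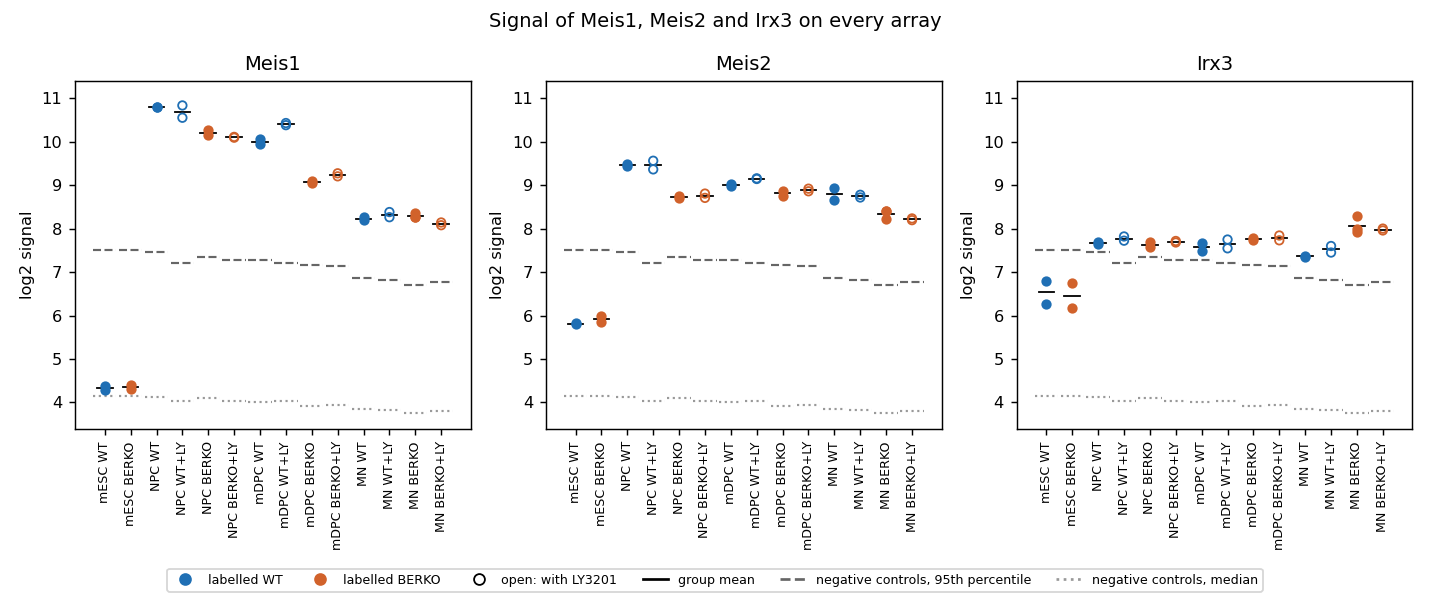
Log2 signal (vertical axis) of Meis1, Meis2 and Irx3 on each of the 29 arrays, by group (horizontal axis), with blue points labelled WT, orange points labelled BERKO and open points with LY3201. Short lines are group means, and dashed and dotted lines are the 95th percentile and the median of the negative controls. All 25 arrays after mESC lie above the dashed line for each gene, and Meis1 falls from 10.79 in untreated NPC WT to 8.23 in untreated MN WT.

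Gbx2, the anterior hindbrain factor, had its highest signals in mESC. It read 6.35 and 6.32 labelled WT and 5.84 and 5.97 labelled BERKO at that stage. In NPC its values lay between 4.55 and 4.95 and in mDPC between 4.40 and 4.98. In MN it read 4.64 and 4.47 untreated and 4.72 and 4.77 with LY3201 labelled WT, and 5.28, 5.41 and 5.0 untreated and 5.47 and 5.68 with LY3201 labelled BERKO. All 5 MN arrays labelled BERKO lay above the 4 labelled WT, and below the mESC arrays. The 4 highest groups in its order, mESC WT, mESC BERKO, MN BERKO with LY3201 and untreated MN BERKO, did not overlap with each other.

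Otx2, the partner of Gbx2 at the boundary of midbrain and hindbrain, read 4.18 and 4.14 in mESC labelled WT and 4.53 and 4.56 in mESC labelled BERKO. Its highest values were in NPC: 4.87 and 4.92 untreated and 4.92 and 4.92 with LY3201 labelled WT, and 5.26 and 4.96 untreated and 5.22 and 5.11 with LY3201 labelled BERKO. All 8 NPC arrays were above every array of the other stages. In mDPC and MN it lay between 3.95 and 4.38, close to the median of the negative controls.

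The other forebrain genes had still narrower ranges. Otx1 ranged from 3.89 in MN WT with LY3201 to 4.57 in NPC BERKO with LY3201, with a median of 4.15, and Six3 from 3.55 to 4.36 with a median of 3.85. Emx2 ranged from 3.92 in mESC BERKO to 4.88 in mDPC BERKO with LY3201, with a median of 4.45, and Lhx2 from 4.42 in MN BERKO to 5.30 in mDPC WT with LY3201, with a median of 4.84. Six3 was above the negative control median of its array on 9 of 29 arrays, Otx1 on 21, Emx2 on 25, Otx2 on 28 and Lhx2 on 29. Of the 13 pairs of neighbouring groups, 2 did not overlap for Six3, 3 each for Otx1 and Emx2, and 5 each for Lhx2 and Otx2.

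**Figure D2:**
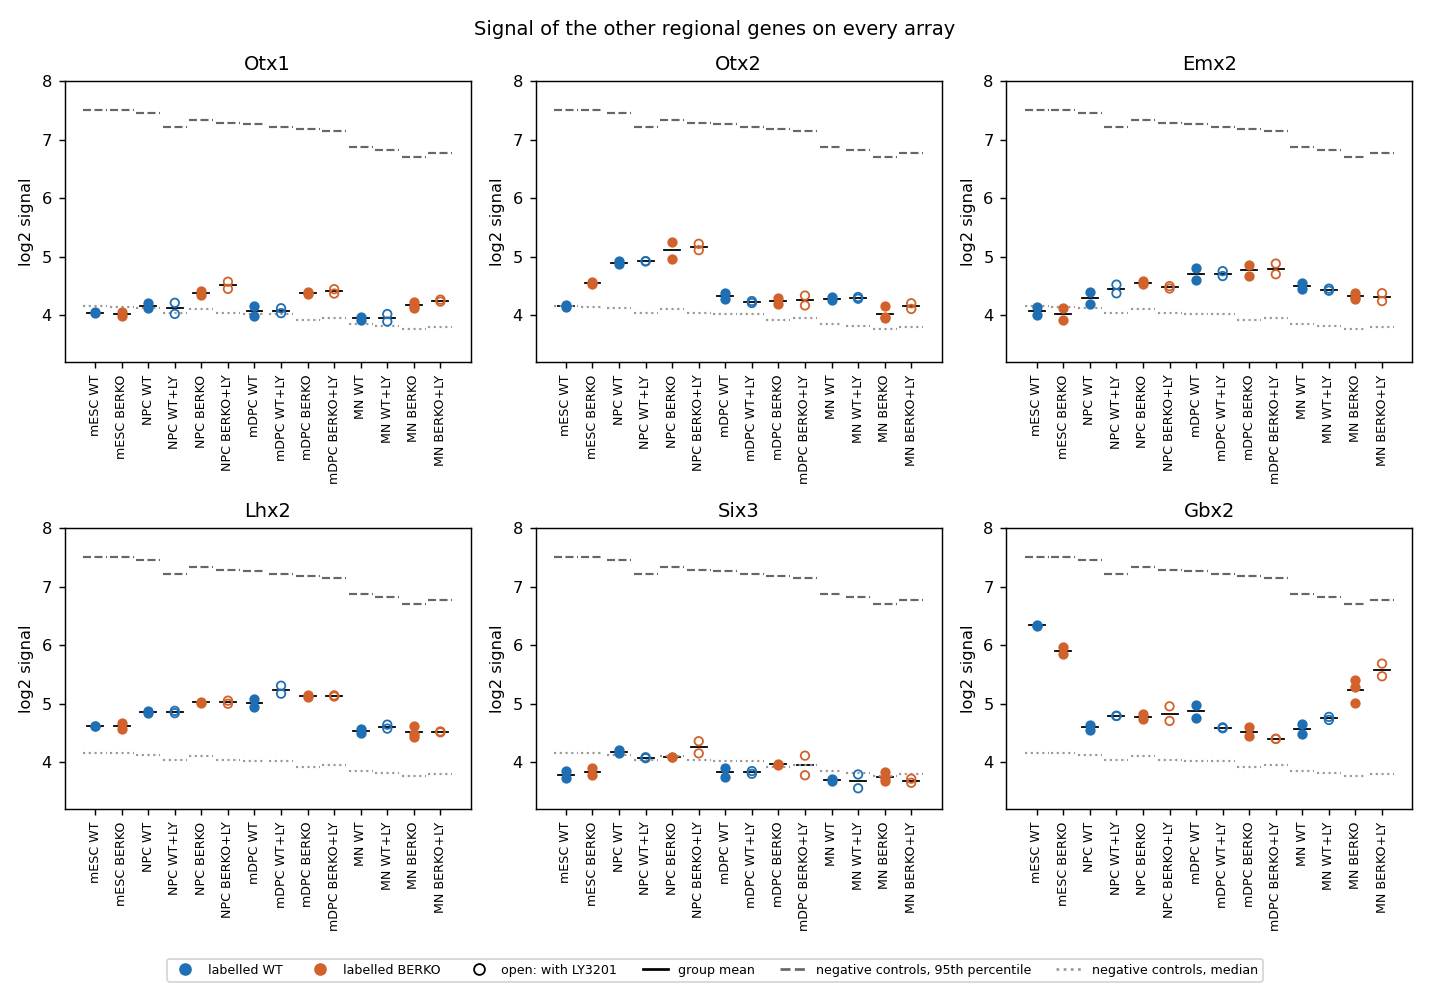
Log2 signal (vertical axis) of Otx1, Otx2, Emx2, Lhx2, Six3 and Gbx2 on each array by group (horizontal axis), with blue for arrays labelled WT, orange for arrays labelled BERKO and open points for LY3201. Short lines are group means, and dashed and dotted lines are the 95th percentile and the median of the negative controls. None of the 6 genes reaches the dashed line on any of the 29 arrays.

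The first question of the design is how the genes change from stage to stage. From mESC to NPC, 6 of 9 rose and 1 fell in cells labelled WT, and 8 rose and 1 fell in cells labelled BERKO (limma, adjusted p below 0.05); over all tested genes 62.9% were called in WT and 63.5% in BERKO, so that most genes changed at this step. Meis1 rose by 6.46 ± 0.08 (SE, n = 2 against 2) labelled WT, adjusted p = 7.32e-22, and by 5.85 ± 0.08 labelled BERKO, adjusted p = 2.72e-21. Its mESC values lay in the range of the negative controls, so the rise has only a bound: measured from the 95th percentile of the negative controls in mESC, it was at least 9.74-fold labelled WT and at least 6.54-fold labelled BERKO. Meis2 rose by 3.66 ± 0.09 labelled WT (adjusted p = 1.7e-17, at least 3.89-fold) and by 2.81 ± 0.09 labelled BERKO (adjusted p = 9.76e-16, at least 2.34-fold). For Irx3 the rises were 1.13 ± 0.16 and 1.18 ± 0.16, adjusted p = 5.24e-06 and 3.04e-06, and the bounds only 1.12-fold and 1.10-fold.

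Gbx2 was the single gene of the set that fell at this step, with changes of -1.74 ± 0.12 labelled WT (adjusted p = 7.78e-11) and -1.12 ± 0.12 labelled BERKO (adjusted p = 5.85e-08). Otx2 rose by 0.73 ± 0.09 and 0.56 ± 0.09, Lhx2 by 0.24 ± 0.07 and 0.40 ± 0.07, and Six3 by 0.40 ± 0.10 and 0.25 ± 0.10, labelled WT and BERKO in turn. The Six3 call labelled BERKO (adjusted p = 0.0455) was lost with the mESC arrays of shared number averaged (adjusted p = 0.123), with no filter (0.057), with the trended prior (0.0506), with only the compared groups (0.0781) and in 3 of 4 fits without 1 array. Otx1 and Emx2 passed only in cells labelled BERKO, with 0.35 ± 0.08 and 0.53 ± 0.10. In cells labelled WT they changed by 0.12 ± 0.08 and 0.23 ± 0.10, and the difference between the labels was not called for either, with adjusted p = 0.231 for Otx1 and 0.221 for Emx2. The median change of the 9 genes was 0.40 labelled WT and 0.53 labelled BERKO, beside -0.04 and -0.10 over all genes tested.

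From NPC to mDPC, fewer of the genes moved. In untreated cells labelled WT, 1 rose and 4 fell of 9, with 30.4% of all genes called, and in those labelled BERKO 0 rose and 2 fell, with 35.4% called. Meis1 fell in both, by 0.79 ± 0.08 (adjusted p = 3.99e-07) and by 1.14 ± 0.08 (adjusted p = 1.8e-09). Otx2 fell in both, by 0.56 ± 0.09 (adjusted p = 8.18e-05) and by 0.87 ± 0.09 (adjusted p = 3.13e-07). Meis2 fell by 0.46 ± 0.09 labelled WT (adjusted p = 0.000761) and changed by 0.08 ± 0.09 labelled BERKO (adjusted p = 0.55). Labelled WT, Six3 also fell, by 0.36 ± 0.10, and Emx2 rose by 0.41 ± 0.10, both in the background range. With LY3201 in both stages, 1 rose and 3 fell labelled WT, with 27% of all genes called, and 1 rose and 4 fell labelled BERKO, with 33.1% called. There Meis1 fell by 0.29 ± 0.08 labelled WT, a call lost without the first NPC WT array with LY3201 (-0.15, adjusted p = 0.266) or the second mDPC WT array with LY3201 (-0.26, adjusted p = 0.0888), and by 0.86 ± 0.08 labelled BERKO. Meis2 fell by 0.31 ± 0.09 labelled WT, but stayed called in 1 of the 4 fits that left out an array. Otx2 fell under both labels, by 0.70 ± 0.09 and 0.91 ± 0.09.

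From mDPC to MN, Meis1 fell again under every label and treatment. Untreated, it fell by 1.77 ± 0.08 labelled WT (adjusted p = 1.87e-12) and by 0.78 ± 0.08 labelled BERKO (n = 2 and 3 arrays, adjusted p = 5.4e-08). With LY3201 it fell by 2.08 ± 0.08 and by 1.13 ± 0.08. Over the set, 0 genes rose and 3 fell in untreated WT, with 42% of all genes called, and 1 rose and 6 fell in untreated BERKO, with 50.9% called. With LY3201, 0 rose and 4 fell labelled WT, with 42% called, and 1 rose and 5 fell labelled BERKO, with 46.2% called. The gene that rose was Gbx2 in cells labelled BERKO, by 0.71 ± 0.11 untreated (adjusted p = 1.65e-05) and 1.18 ± 0.12 with LY3201 (adjusted p = 8.5e-08).

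Lhx2 fell in all 4 mDPC to MN comparisons, by between 0.48 ± 0.07 and 0.63 ± 0.07, and each of these calls held in every fit that left out an array. Meis2 fell by 0.47 ± 0.09 in untreated BERKO, by 0.68 ± 0.09 in BERKO with LY3201 and by 0.40 ± 0.09 in WT with LY3201, and changed by -0.21 ± 0.09 in untreated WT (adjusted p = 0.0825). That last change was called without the second untreated MN WT array (-0.35, adjusted p = 0.00915). Emx2 fell by 0.45 ± 0.09 in untreated BERKO, by 0.48 ± 0.10 in BERKO with LY3201 and by 0.28 ± 0.10 in WT with LY3201, the last lost without any 1 of the 4 arrays. Otx1 and Otx2 fell by 0.21 ± 0.07 and 0.22 ± 0.08 in untreated BERKO, and both calls were lost after quantile normalization (-0.10, adjusted p = 0.283, and -0.10, adjusted p = 0.382), where the median change of all genes as deposited was -0.14. Six3 fell by 0.26 ± 0.10 in BERKO with LY3201, and Gbx2 fell by 0.31 ± 0.12 in untreated WT; the first call held in 1 of 4 fits without 1 array and the second in 2 of 4, with adjusted p up to 0.553 and 0.304. Irx3 did not pass at any step after NPC.

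**Figure D3:**
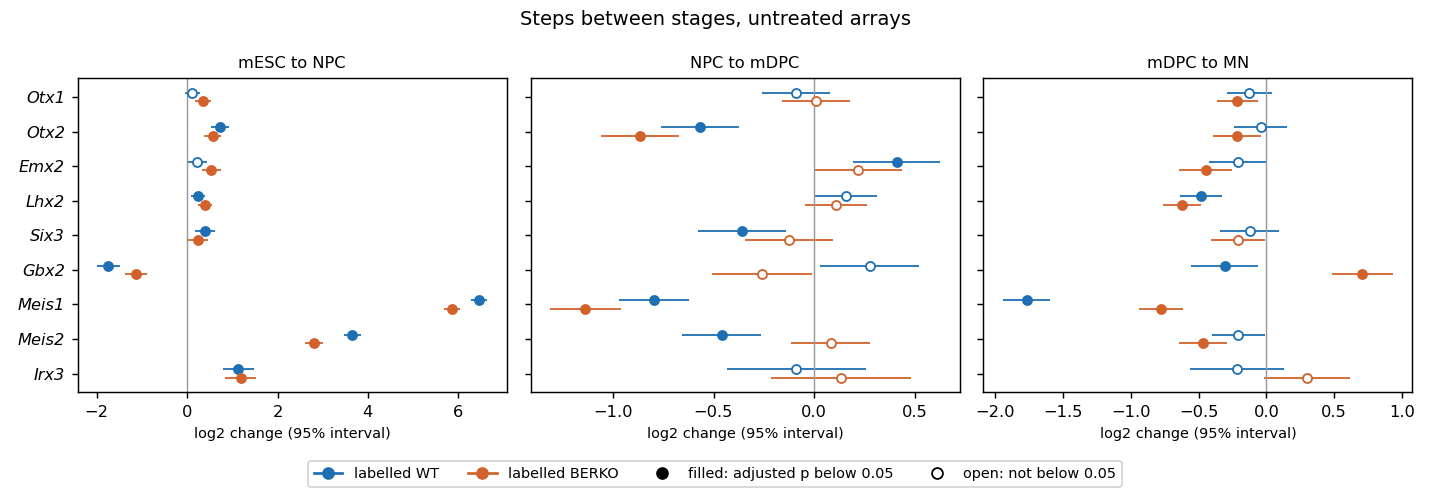
Log2 change (horizontal axis, with its 95% interval) of each of the 9 genes (vertical axis) from mESC to NPC, from NPC to mDPC and from mDPC to MN in untreated cells, blue for cells labelled WT and orange for BERKO; filled points passed an adjusted p of 0.05. The scale differs between panels. Meis1 and Meis2 stand far to the right in the first panel, and Gbx2 lies on opposite sides of 0 for the labels in the last.

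The second question is how arrays labelled BERKO differed from those labelled WT at each stage. In untreated mESC, 2 of 9 genes were called, with 4.21% of all genes called: Otx2 was higher labelled BERKO by 0.39 ± 0.09 (adjusted p = 0.021) and Gbx2 lower by 0.43 ± 0.12 (adjusted p = 0.0453). Neither call held without any 1 of the 4 mESC arrays, where adjusted p reached 0.126 and 0.32, nor with the 2 arrays of shared number averaged, where it was 0.139 and 0.218. Meis1, Meis2 and Irx3 differed by 0.03 ± 0.08, 0.11 ± 0.09 and -0.08 ± 0.16 at this stage, with 95% intervals of -0.15 to 0.20, -0.09 to 0.30 and -0.43 to 0.26.

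In untreated NPC, the 2 called genes of 9 were Meis1 and Meis2, both lower labelled BERKO, with 15.7% of all genes called. Meis1 was lower by 0.58 ± 0.08 (1.49-fold, adjusted p = 5.94e-05) and Meis2 by 0.74 ± 0.09 (1.67-fold, adjusted p = 1.4e-05). With LY3201 the same pair was lower, Meis1 by 0.59 ± 0.08 (adjusted p = 5.81e-05) and Meis2 by 0.71 ± 0.09 (adjusted p = 2.69e-05), with 10.4% of all genes called. Otx1 was the third called gene there, higher by 0.39 ± 0.08 (adjusted p = 0.00237), and held in 2 of 4 fits without 1 array. Irx3 differed by -0.03 ± 0.16 untreated and -0.07 ± 0.16 with LY3201, with 95% intervals of -0.38 to 0.32 and -0.42 to 0.27. The 4 Meis calls at this stage held in every fit that left out an array, with changes from -0.81 to -0.45. When only the compared groups were fitted, the Meis1 call with LY3201 was lost (adjusted p = 0.0538).

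In mDPC the difference of Meis1 between the labels was the largest of the set at any stage. It was lower labelled BERKO by 0.92 ± 0.08 untreated (1.89-fold, adjusted p = 1.6e-07) and by 1.17 ± 0.08 with LY3201 (2.25-fold, adjusted p = 5.29e-09). Meis2 differed by -0.20 ± 0.09 (adjusted p = 0.191) and -0.26 ± 0.09 (adjusted p = 0.0683), and the untreated difference was called after quantile normalization (-0.30, adjusted p = 0.038). The other called gene of 9 was Otx1, higher by 0.31 ± 0.08 untreated and 0.33 ± 0.08 with LY3201 (adjusted p = 0.0113 and 0.00683), each lost in 2 of 4 fits without 1 array. Of all genes, 13.8% were called untreated and 15.3% with LY3201.

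In MN, 5 of 9 genes were called between the labels untreated, with 20.8% of all genes called, and 3 with LY3201, with 19.6% called. Meis1 was not among them, with 0.07 ± 0.08 untreated (95% interval -0.09 to 0.23) and -0.21 ± 0.08 with LY3201 (adjusted p = 0.0839). Meis2 was lower labelled BERKO by 0.46 ± 0.09 untreated (1.37-fold, adjusted p = 0.000545) and 0.53 ± 0.09 with LY3201 (adjusted p = 0.000385). Irx3 was higher by 0.71 ± 0.15 untreated (1.63-fold, adjusted p = 0.00178); with LY3201 it differed by 0.46 ± 0.16 (adjusted p = 0.0611), a difference called after quantile normalization (0.50, adjusted p = 0.0352). Gbx2 was higher by 0.67 ± 0.11 untreated (adjusted p = 0.000119) and 0.83 ± 0.12 with LY3201 (adjusted p = 4.36e-05).

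Otx1 was higher in MN labelled BERKO by 0.22 ± 0.07 and 0.29 ± 0.08, and Otx2 lower by 0.26 ± 0.08 untreated, all near the negative control median and all lost in most fits without 1 array. The 2 untreated MN WT arrays differed in neuron markers: the mean signal of the 7 neuron markers was 8.22 on the first and 10.06 on the second, against 7.59 to 7.81 on the untreated arrays labelled BERKO. Without either of these arrays, and without any 1 of the BERKO arrays, the untreated differences stayed between 0.58 and 0.78 for Gbx2, between -0.60 and -0.31 for Meis2 and between 0.60 and 0.78 for Irx3, with adjusted p at most 0.0336. When only the compared groups were fitted, the Meis2 calls were lost, with adjusted p = 0.0781 untreated and 0.0509 with LY3201.

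**Figure D4:**
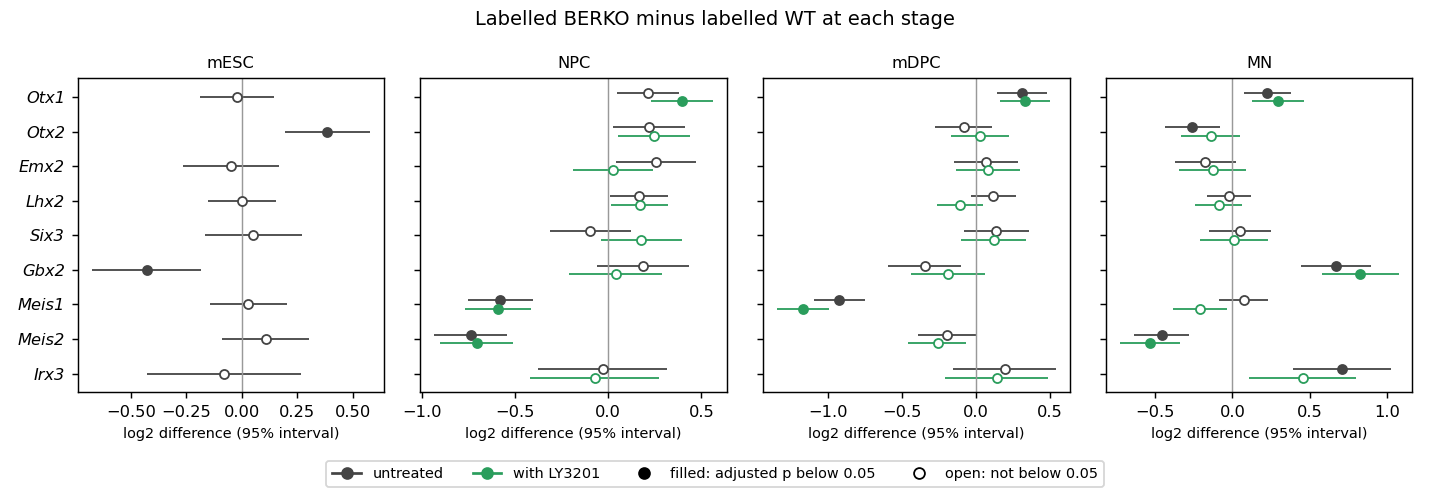
Log2 difference between arrays labelled BERKO and WT (horizontal axis, with its 95% interval) of each of the 9 genes (vertical axis) at mESC, NPC, mDPC and MN; dark grey is untreated, green is with LY3201, and filled points passed an adjusted p of 0.05. The scale differs between panels. Meis1 lies left of 0 in NPC and mDPC and near 0 in mESC and MN, while Gbx2 and Irx3 lie right of 0 in MN.

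Whether a step differed between the labels was tested directly, as the difference of the 2 untreated changes. From mESC to NPC, 3 of 9 genes were called, with 9.6% of all genes called: the change in signal labelled BERKO minus that labelled WT was -0.61 ± 0.12 for Meis1 (adjusted p = 0.00206), -0.84 ± 0.13 for Meis2 (adjusted p = 0.000288) and 0.62 ± 0.17 for Gbx2 (adjusted p = 0.023). The mESC signals of Meis1 and Meis2 lay in the range of the negative controls, so these values do not show which rise was smaller and are close to the differences in NPC alone, -0.58 and -0.74. The Gbx2 call, in that range at both stages, held in 3 of 8 fits without 1 array and was lost with arrays of shared number averaged (adjusted p = 0.0713) and after quantile normalization (adjusted p = 0.0562). From NPC to mDPC, Meis2 alone of the 9 was called, with 8.68% of all genes called: its change labelled BERKO was higher by 0.54 ± 0.13 (adjusted p = 0.0127), a call lost without the second mDPC BERKO array (adjusted p = 0.0595). Meis1 differed by -0.34 ± 0.12 at this step (adjusted p = 0.0857). From mDPC to MN, Meis1 and Gbx2 were called, with 12.5% of all genes called. The fall of Meis1 was smaller labelled BERKO by 0.99 ± 0.11 (adjusted p = 5.11e-06), and Gbx2 changed by 1.02 ± 0.16 more (adjusted p = 0.000187); both held in all 9 fits without 1 array. For Irx3 the difference at the last step was 0.52 ± 0.22 (adjusted p = 0.16).

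LY3201 was compared with vehicle at NPC, mDPC and MN under each label. None of the 9 genes was called in any of these 6 comparisons (limma). Of all genes, 0.00453% were called in NPC WT, 0% in NPC BERKO (where 1843 genes had an unadjusted p below 0.05), 0.0635% in mDPC WT, 0.113% in mDPC BERKO, 1.83% in MN WT and 0.344% in MN BERKO. At an unadjusted p below 0.05, 3 of the 9 genes passed in mDPC WT, where 12.7% of all genes did, 2 in MN BERKO, where 11.3% did, and 0 in each of the other 4 comparisons, where 8.35% to 14.1% did. The 3 in mDPC WT were Meis1, with 0.41 ± 0.08 (95% interval 0.24 to 0.58, adjusted p = 0.089), Gbx2, with -0.28 ± 0.12 (adjusted p = 0.333), and Lhx2, with 0.22 ± 0.07 (adjusted p = 0.245). In MN BERKO they were Gbx2, with 0.34 ± 0.11 (adjusted p = 0.186), and Meis1, with -0.19 ± 0.08 (adjusted p = 0.343).

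In NPC, the 95% intervals of the LY3201 difference were -0.27 to 0.08 for Meis1 and -0.20 to 0.19 for Meis2 in WT, and -0.28 to 0.07 and -0.17 to 0.22 in BERKO. The difference of the LY3201 change between the labels was called for 0 of 9 genes at each stage. Of all genes, 0.499% were called in NPC, 0% in mDPC (where 1845 had an unadjusted p below 0.05) and 0.63% in MN. Unadjusted, 1 of the 9 passed in mDPC, Lhx2 with -0.22 ± 0.10, and 1 in MN, Meis1 with -0.28 ± 0.11, beside 8.36% and 14.1% of all genes.

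**Figure D5:**
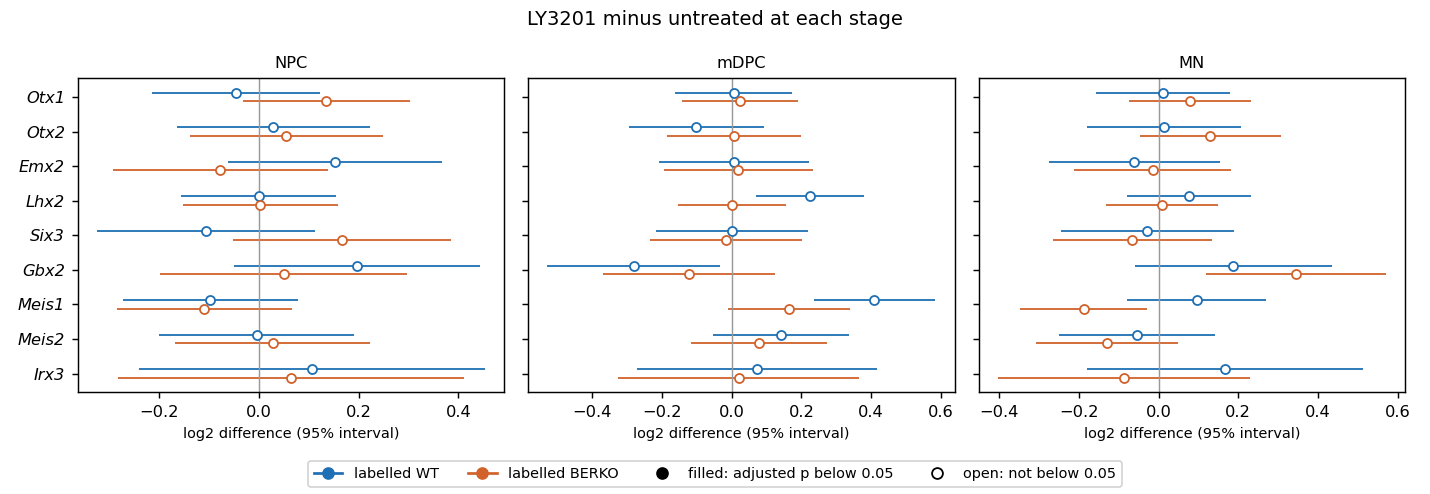
Log2 difference between LY3201 and untreated cells (horizontal axis, with its 95% interval) of each of the 9 genes (vertical axis) in NPC, mDPC and MN, blue for cells labelled WT and orange for BERKO; all points are open because none passed an adjusted p of 0.05. The scale differs between panels. The point farthest from 0 is Meis1 in mDPC labelled WT, at 0.41.

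The genes that share regions or complexes with these 9 were taken from 4 lists. Of all tested genes, 62.9% were called from mESC to NPC labelled WT and 63.5% labelled BERKO, and 15.7% were called between the labels in untreated NPC. Of 14 measured hindbrain and spinal factors, mostly HOX genes and thus partners of MEIS proteins, 13 were tested. Labelled WT, 12 of them rose and 0 fell from mESC to NPC, with a median of 2.11 beside -0.04 over all genes, and labelled BERKO 11 rose and 0 fell, with a median of 0.76. Hoxa5, a factor of the cervical spinal cord, had mESC means of 4.30 and 3.8 in the range of the negative controls, and rose at least 2.99-fold labelled WT and at least 1.55-fold labelled BERKO. Between the labels in untreated NPC, 0 were higher and 8 lower labelled BERKO, with a median of -0.95. The signal of Hoxb6 differed by -2.28 ± 0.15, that of Hoxc8 by -2.22 ± 0.25 and that of Hoxc9 by -1.42 ± 0.14, with the means of Hoxb6 and Hoxc8 under both labels and that of Hoxc9 labelled BERKO below the 95th percentile of the negative controls, in the stage where Meis1 and Meis2 were also lower.

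In mDPC, 2 hindbrain and spinal factors were higher and 7 lower labelled BERKO, with a median of -1.19, and in MN 1 was higher and 7 lower, with a median of -0.92. Of all genes, 13.8% were called between the labels in mDPC and 20.8% in MN. Hoxc8 was lower by 4.64 ± 0.25 in mDPC and by 3.05 ± 0.23 in MN, the latter a stage at which Meis1 was not called. Its means labelled BERKO, 4.10 in mDPC and 3.74 in MN, lay in the range of the negative controls. Named after their values were seen, the genes that were higher were Hoxa2, a factor of the anterior hindbrain, by 1.52 ± 0.12 in mDPC and 1.54 ± 0.11 in MN, and Egr2, another hindbrain factor, by 0.28 ± 0.08 in mDPC. Egr2 was above the 95th percentile of the negative controls on 0 of 29 arrays. The mean signal of the whole list was 5.84 to 5.87 in untreated NPC labelled WT and 4.98 to 5.06 labelled BERKO.

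Of 17 measured relatives and cofactors, 14 were tested. From mESC to NPC, 9 rose and 3 fell under each label, with 62.9% of all genes called labelled WT and 63.5% labelled BERKO. Among those that rose was Pbx3, a PBX partner of MEIS proteins. Its signal went from 5.94 to 7.46 labelled WT and from 5.96 to 7.78 labelled BERKO, with mESC in the range of the negative controls. Given as a bound, the rise of Pbx3 was at least 1.21-fold labelled BERKO. Labelled WT the bound was 0.97-fold, so no rise above the level of the negative controls in mESC was shown. Between the labels in untreated cells, 0 were higher and 1 lower in mESC, 4 and 2 in NPC, 4 and 4 in mDPC, and 4 and 2 in MN. Of all genes, 4.21%, 15.7%, 13.8% and 20.8% were called at these stages in turn. Irx1 and Irx2, relatives of Irx3, were higher labelled BERKO in NPC, by 1.52 ± 0.13 and 0.92 ± 0.10, a stage at which Irx3 differed by -0.03 ± 0.16. In MN, Irx1 was higher by 0.75 ± 0.12, Irx2 by 0.71 ± 0.09 and Irx5 by 0.83 ± 0.13, beside 0.71 ± 0.15 for Irx3. Irx1, Irx2 and Irx5 were above the 95th percentile of the negative controls on 0 of 29 arrays. Ldb2, which encodes a protein that binds LIM-homeodomain factors such as LHX2, was higher labelled BERKO by 0.70 ± 0.13 in NPC, 1.28 ± 0.13 in mDPC and 1.5 ± 0.12 in MN. Its NPC means, 5.45 labelled WT and 6.15 labelled BERKO, lay below the 95th percentile of the negative controls. So did its means labelled WT in mDPC (6.08) and MN (6.4). Tle1, a corepressor of the Groucho family, had changes of -0.38 ± 0.11 in NPC (adjusted p = 0.0226) and -0.78 ± 0.11 in mDPC (adjusted p = 3.84e-05), lower labelled BERKO. Its mDPC mean labelled BERKO, 6.89, lay below the 95th percentile of the negative controls, and that labelled WT, 7.67, above it.

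Most other forebrain factors also stayed below the 95th percentile of the negative controls. Of 20 measured, 13 were tested and 2 exceeded the 95th percentile of the negative controls on at least 2 arrays, Nr2f1 and Nr2f2, which are nuclear receptors expressed well beyond the forebrain. From mESC to NPC labelled WT, 5 rose and 1 fell of the 13 tested, with 62.9% of all genes called. The largest rise was that of Nr2f1, at least 4.23-fold from an mESC mean of 5.20, in the range of the negative controls. Between the labels in untreated cells, 4.21% of all genes were called in mESC, 15.7% in NPC, 13.8% in mDPC and 20.8% in MN. Of these factors, 0 were higher and 0 lower in mESC, 0 and 1 in NPC (Sp8), 1 and 0 in mDPC (Nr2f2), both named after their values were seen, and 3 and 1 in MN. There Nr2f1 was higher by 0.44 ± 0.11 and Pax6, a factor of forebrain and spinal progenitors, by 0.35 ± 0.07. Without the first MN WT array 1 was higher and 0 lower.

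Of 14 measured midbrain and isthmus genes, 10 were tested and 2 exceeded that level on at least 2 arrays, En2 and Pax3. Labelled BERKO, 1 was higher and 0 lower in mESC (Fgf17), 1 and 1 in NPC (Pax3 and Foxa2), 1 and 0 in mDPC (Pax3), and 2 and 2 in MN. The single genes before MN were named after their values were seen. Of all genes, 4.21% were called in mESC, 15.7% in NPC, 13.8% in mDPC and 20.8% in MN. In MN, Pax3, a dorsal neural tube and neural crest factor, was higher by 1.19 ± 0.10, En2, a midbrain and cerebellar factor, higher by 0.83 ± 0.15, and En1, its paralog, lower by 0.56 ± 0.10. Labelled WT and BERKO in turn, MN means were 4.89 and 6.07 for Pax3, 6.1 and 6.93 for En2 and 4.55 and 4.0 for En1. Of these, only that of En2 labelled BERKO lay above the 95th percentile of the negative controls. In untreated mDPC the Pax3 means were 4.79 labelled WT and 7.15 labelled BERKO. The mean signal of this list lay between 3.92 and 4.23 on all arrays, close to the median of the negative controls, also in mDPC and MN, the stages labelled as midbrain. In untreated mDPC, the mean of the hindbrain and spinal list was 5.78 to 5.80 labelled WT and 4.85 to 4.88 labelled BERKO.

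Markers of other cell types moved with some of these differences. Between the labels in untreated cells, 15.7% of all genes were called in NPC, 13.8% in mDPC and 20.8% in MN. The 8 mesenchymal markers, such as Dcn and Col3a1, included 6 that were lower and 0 higher labelled BERKO in untreated NPC and 7 lower and 0 higher in MN, with medians of -1.68 and -1.48. Their mean signal was 7.05 to 7.08 in NPC WT and 5.08 to 5.20 in NPC BERKO, and 6.82 to 6.89 in MN WT and 4.69 to 4.93 in MN BERKO. In mDPC, where Meis1 differed most, 0 of 8 were called, and their mean was 4.70 to 4.71 labelled WT and 4.53 to 4.57 labelled BERKO. In NPC and MN their part in the Meis2 difference, and in NPC in that of Meis1, was not tested.

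The 7 neuron markers were all lower labelled BERKO in untreated MN, with a median of -1.31 and with 20.8% of all genes called. Without the second untreated MN WT array 1 of 7 was called, with a median of -0.35, and without the first 7, with a median of -2.40. Without the first BERKO array 3 of 7 were called, and without the second 4. In mDPC 2 were lower and 0 higher, with 13.8% of all genes called. Of 5 measured ependymal and choroid plexus markers, 3 were tested, and all 3 were higher in MN labelled BERKO, with a median of 1.92. The others, Ttr and Kcnj13, had low MN means, 3.38 and 2.97 labelled WT and 3.35 and 3.08 labelled BERKO. Of 7 astrocyte markers, 4 were higher and 1 lower, with a median of 0.49, or 0.37 without the second MN WT array. The part of these cell types in the MN differences of Meis2, Irx3 and Gbx2 was not tested. In mDPC, 3 of 5 tested oligodendrocyte lineage markers were higher and 0 lower labelled BERKO. The mean of the 7 neural progenitor markers there was 10.96 to 11.11 labelled WT and 10.22 to 10.26 labelled BERKO, with 1 higher and 2 lower, and that of the neuron markers was 8.03 on both arrays labelled WT and 7.35 to 7.43 labelled BERKO. The part of these lists in the mDPC difference of Meis1 was likewise not tested. Endoderm and microglia markers, 2 tested of each, were above the 95th percentile of the negative controls on fewer than 2 arrays. All 7 pluripotency markers fell and all 7 neural progenitor markers rose from mESC to NPC under both labels, in the direction of the stage labels. At this step 62.9% of all genes were called labelled WT and 63.5% labelled BERKO.

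The patterns over the 14 groups were compared among the 9 genes and with other tested genes as a description. Points share their arrays, and the mESC groups set much of each correlation. Pearson's r between Meis1 and Meis2 was 0.959 over 14 groups and 0.802 over the 12 groups without mESC. Between Meis1 and Irx3 it was 0.80 over 14 groups and -0.16 over 12, and between Meis2 and Irx3 0.837 and -0.42. Gbx2 ran against Meis2 over 14 groups, with r = -0.906.

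Genes with the pattern most like each of the 3 detected members were ranked by r over the 14 group means, among genes whose range was at least 0.5 of the member's. The 9 genes were left out, as were genes with names of predicted genes, clones, small RNAs or mitochondrial genes, or names beginning with Rn. For Meis1, among 2625 genes, they were Cdkn1b (r = 0.994), a cell cycle inhibitor, Gsk3b (r = 0.990), a kinase of the Wnt pathway, and Tet3 (r = 0.988), a 5-methylcytosine dioxygenase. For Meis2, among 5833 genes, they were Megf10 (r = 0.993), a glial engulfment receptor, Limch1 (r = 0.992), an actomyosin regulator, and Cdh13 (r = 0.991), a cadherin. For Irx3, among 10702 genes, they were Atp9b (r = 0.988), a phospholipid-transporting ATPase family member, Aph1c (r = 0.974), a gamma-secretase subunit, and Abhd2 (r = 0.973), a lipase. Aph1c stayed between 3.69 and 5.36 over the groups, in the background range.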

How the data were processed

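RNA samples of 150 ng were hybridised to 29 Clariom D (MTA 1.0) mouse arrays. The values were used on the log2 scale as deposited by the authors. The submitters' processing notes name Affymetrix Expression Console 1.4 with SST-RMA; which steps each named tool did is not given in the sources used here. Of 65956 transcript clusters, 30604 had 1 symbol in the platform annotation, 2146 had several and 33206 had none; 827 symbols were updated through RefSeq. Genes with several clusters (355) were represented by the cluster of highest mean.

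A linear model with 1 mean per group was fitted to all 22063 genes with limma 3.58.1 in R 4.3.3, and p-values of each of 29 comparisons were adjusted over all genes by the Benjamini-Hochberg method, with a threshold of 0.05. SE and 95% intervals come from that fit, with 15 residual degrees of freedom and 3.3 prior degrees of freedom added by limma. The small number of arrays limits the precision. For Meis1, Meis2, Irx3, Hoxa5, Nr2f1 and Pbx3, the fold of the rise from mESC is given as a bound, with the mESC side set to the higher of the gene's value and the 95th percentile of the negative controls on that array.

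The 9 genes and the lists were chosen with earlier results of these data known. Where at least 3 genes of a list were called, the genes named were mostly taken from the 4 called genes of largest change. Not all of those 4 were named, and some genes named had smaller changes. The alternatives were another filter, no filter, quantile normalization, a fit to the compared groups only, a trended robust prior, averaging of arrays that share a title number, and leaving out each array.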

Additional observations from a re-analysis of the deposited data

Results flagged for a closer look

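The changes of some of the 9 genes differed between the labels by the direct test in untreated cells (limma). From mESC to NPC, the change labelled BERKO minus that labelled WT was 0.62 for Gbx2, -0.61 for Meis1 and -0.84 for Meis2. From NPC to mDPC it was 0.54 for Meis2. From mDPC to MN it was 1.02 for Gbx2 and 0.99 for Meis1. The mESC signals of Meis1 and Meis2, and those of Gbx2 at every stage, lay in the range of the negative controls, so the values from mESC to NPC are differences in signal and do not show which change was larger. Groups held 2 or 3 arrays, and no array was tested as standing apart from its group.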

How the results depend on the processing

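Groups held 2 or 3 arrays, and 6 of the 9 genes lay in the range of the negative controls. Of 77 calls, 54 held in every fit that left out 1 array: 15 of 16 for Meis1, 11 of 13 for Meis2, 3 of 3 for Irx3, 7 of 7 for Lhx2, 7 of 11 for Gbx2, 6 of 9 for Otx2, 3 of 6 for Emx2, 1 of 7 for Otx1 and 1 of 5 for Six3. No called change reversed. No paired analysis was possible because the groups compared share fewer than 2 numbers in the labels (1 number appears in both MN groups with LY3201). Each gene had 1 cluster, so using another cluster was not run. The trended robust prior kept all 29 counts within 1.5 times.

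The number of the 9 genes called moved as follows. Under the filter at the 75th percentile, which left 4 of the 9 genes tested, the genotype counts went from 2 to 1 in mESC and from 5 to 3 in MN. The mESC to NPC counts went from 7 to 4 labelled WT and from 9 to 4 labelled BERKO, the NPC to mDPC counts from 5 to 2 and from 2 to 1, and the mDPC to MN count labelled BERKO from 7 to 3. With LY3201 they went from 4 to 2 and from 5 to 2 for NPC to mDPC and from 4 to 2 and from 6 to 3 for mDPC to MN, and the NPC to mDPC difference between labels from 1 to 2. In fits to the compared groups only, the genotype counts went to 0 in mESC, 1 in mDPC and 2 in MN, and with LY3201 to 1 in NPC, 1 in mDPC and 1 in MN; the NPC to mDPC counts with LY3201 went to 1 labelled WT and 3 labelled BERKO. The mESC genotype count was 1 with no filter, 1 after quantile normalization and 0 with arrays of shared number averaged, which also gave 5 for MN with LY3201 and 2 for the NPC to mDPC difference. Leaving out 1 array gave genotype counts of 0 to 0 in mESC, 1 to 2 in mDPC and 3 to 4 in MN, and 1 to 2 in mDPC with LY3201. It gave 2 to 4 for NPC to mDPC with LY3201 under either label, and 0 to 2 for the NPC to mDPC difference. Beyond the number of genes or arrays entering each fit, the cause was not tested.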
